A study of Mus musculus with 8 samples.

Results

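The genes described here are 41 genes of integrins, cell adhesion and cell motility, chosen by gene symbol: integrin chains, other adhesion receptors and their ligands, receptors for sphingosine 1-phosphate, integrin activators and actin regulators. Of the 41 listed genes, 40 matched a probe set by symbol, each with a single probe set, among 19505 named genes in all. Itga1 was not matched and was not analysed here. They were measured on 8 one-colour expression arrays of T cells from the spleens of 4 male wild-type C57BL/6 mice, isolated as a mixture of CD4 and CD8 cells. All cells, controls included, received anti-CD3 and anti-CD28 microbeads and spent 48 h in culture. The 4 control arrays had phosphate-buffered saline (PBS) as vehicle, and the 4 treated arrays had human beta-defensin-2 (hBD-2), an antimicrobial peptide of epithelia whose dose the labels give as 60 µL/mL. The labels tie no array to a mouse, so the p-values measure the spread between these arrays. The question was which transcripts the peptide alters in T cells under activation. T cell markers were high on every array: the mean log2 value of the 10 marker genes lay between 10.26 and 10.38 over the 8 arrays.

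Integrins are pairs of an alpha and a beta chain that bind ligands on other cells or in the matrix. In T cells they are held in a low-affinity state until signals from the T cell receptor or chemokine receptors reach the small GTPase Rap1, which brings talin and kindlin to the beta chain tail and opens the ectodomain. Movement then depends on actin polymerisation behind Rac and WASP, while exit from lymphoid organs follows a gradient of the lipid sphingosine 1-phosphate.

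With hBD-2, 6 of the 40 genes fell and none passed the threshold upward (limma, Benjamini-Hochberg adjusted p under 0.05 over all 19505 genes). The 6 were the beta chains Itgb1 and Itgb2, the alpha chain Itgam, the hyaluronan receptor Cd44, the talin-binding protein vinculin (Vcl) and the actin regulator Coro1a. The falls ran from 1.30-fold (Coro1a) to 1.54-fold (Itgam, the only member changed by at least 1.5-fold). The 6 genes were 15% of the members, where 3.66% of all genes were called lower, 0.8% higher and 4.46% either way. The members were chosen with earlier results of these data known, so these shares are a description and not a test. At an unadjusted p under 0.05, 10 members were lower and 1 was higher, where 12.8% of all genes were lower and 9.44% higher. Level matters for this comparison, since 29 of the 40 members had a mean log2 value of at least 7.35. Of all genes that bright, 26.3% were lower and 7.79% higher at that p. The 10 lower members include the dim genes Itgam, Vcam1 and Vcl, so these shares are of unlike sets. Bright members were not counted apart at that p. At the adjusted threshold, 4 of the 29 bright members (13.8%) were lower, where 8.32% of all genes that bright were. Whether members differ from other genes of like level was not tested.

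The other 34 genes did not pass. For each of these 34, the 95% confidence interval of the change (limma, not adjusted for the number of genes) lay within 1.5-fold in either direction, and for 16 it lay within 1.25-fold. Transcripts of Selplg, Cd47, Cd2, Cd96, Itgb7, Rap1b and Apbb1ip were among the 15 members whose log2 means differed by less than 0.1.

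**Figure D1:**
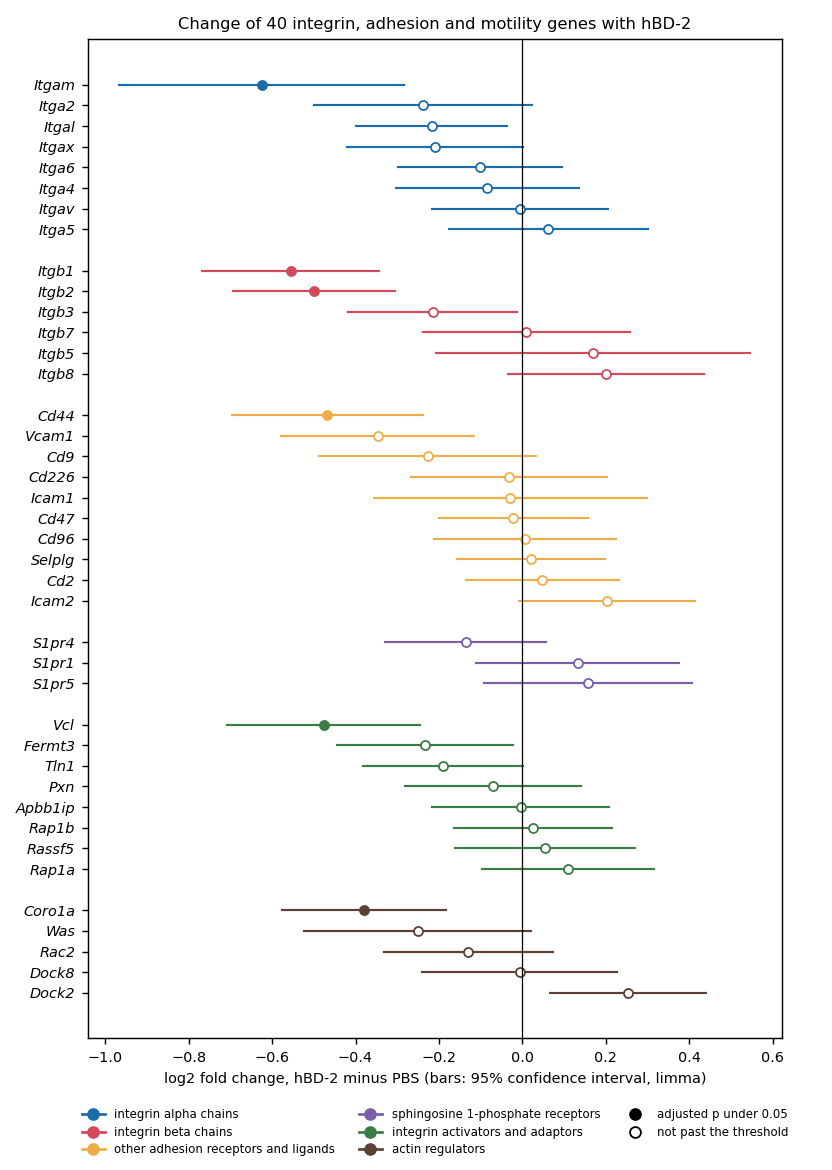
Log2 fold change (hBD-2 minus PBS, horizontal axis) of the 40 measured genes, grouped by role, with 95% confidence intervals from limma (4 arrays a group). Filled points passed an adjusted p of 0.05. The 6 filled points all lie left of 0, between -0.62 (Itgam) and -0.38 (Coro1a), and the highest point is Dock2 at 0.25.

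Promoter sequences, shown here for genes that fell, were found in a RefSeq table (GRCm38.p6) for 27 of the 40 measured members, 5 of them among the 6 that fell. The 250 bases before the start site are given for the 3 falling members with the smallest adjusted p that had an entry, Itgb1, Vcl and Cd44. Capitals mark matches on either strand to GGGCGG (the letters bound by Sp1-type factors), CCGGAA (an Ets core), TGTGGT (a Runx core) or the CArG box of serum response factor, where neighbouring matches can overlap. The Itgb1 window lies at chr8:128685404-128685653 (plus strand), the Vcl window at chr14:20929148-20929397 (plus strand) and the Cd44 window at chr2:102901666-102901915 (minus strand).
Itgb1: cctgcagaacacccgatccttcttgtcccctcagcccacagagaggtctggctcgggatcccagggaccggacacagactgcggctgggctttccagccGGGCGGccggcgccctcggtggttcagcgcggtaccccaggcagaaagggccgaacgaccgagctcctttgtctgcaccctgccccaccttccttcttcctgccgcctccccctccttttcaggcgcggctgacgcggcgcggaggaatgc
Vcl: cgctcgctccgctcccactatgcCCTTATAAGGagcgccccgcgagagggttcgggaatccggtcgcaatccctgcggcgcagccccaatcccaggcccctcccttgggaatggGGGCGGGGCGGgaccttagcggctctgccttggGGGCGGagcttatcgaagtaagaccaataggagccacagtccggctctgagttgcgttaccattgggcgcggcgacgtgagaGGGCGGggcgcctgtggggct
Cd44: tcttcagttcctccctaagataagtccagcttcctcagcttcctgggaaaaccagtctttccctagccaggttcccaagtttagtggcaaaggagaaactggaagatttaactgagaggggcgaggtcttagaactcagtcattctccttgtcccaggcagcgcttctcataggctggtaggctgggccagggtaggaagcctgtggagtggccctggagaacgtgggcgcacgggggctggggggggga

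The Vcl window held 4 matches to GGGCGG and 1 CArG box, the Itgb1 window 1 match to GGGCGG, and the Cd44 window no match to any of these motifs. GGGCGG was present in the windows of 14 of 27 members and in 32.7% of all 32851 windows of the table. Here and below, a member with several windows (Coro1a and Cd47) was counted if any of them held the motif. The percentages are of single windows. CCGGAA was present for 6 of 27 members and in 12% of all windows, and TGTGGT for 4 of 27 members and in 14% of all windows. The CArG box was found for 1 of 27 members, Vcl, and in 1.47% of all windows. A match describes the letters of a window and is not evidence of binding.

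Most members are bright on these arrays, and bright genes as a whole sat slightly lower with hBD-2. Of the 40 genes, 29 lay above the upper quartile of mean level (a log2 value of at least 7.35), and 4 of these 29 (13.8%) were called lower, where 8.32% of all genes above that level were. The median log2 fold change was -0.05 over the 40 members, 0.02 over all genes and -0.08 over all genes above that quartile. The members' median turned to 0.02 with quantile normalization repeated and to 0.01 with cyclic loess, so it has no settled sign. The interquartile range of the arrays lay between 3.64 and 3.76 log2 units for PBS and between 3.45 and 3.64 for hBD-2, and the part of this difference in the members' changes was not tested beyond these normalizations.

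**Figure D2:**
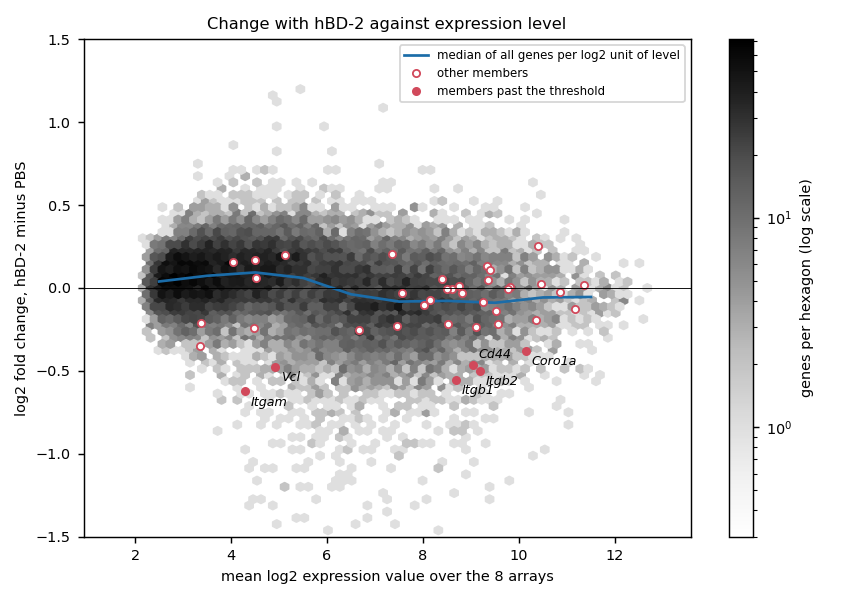
Log2 fold change (hBD-2 minus PBS, vertical axis, drawn from -1.5 to 1.5 only) against the mean log2 value over the 8 arrays. Grey hexagons count all genes on a log scale, the line joins their median per log2 unit of level, and circles are the 40 members, filled where past the threshold. The line lies above 0 for dim genes (0.09 between levels 4 and 5) and below 0 for bright genes (-0.08 between levels 8 and 9).

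The calls depended on which arrays were used. Leaving out any single array kept Itgb1 and Itgb2 past the threshold, with adjusted p up to 0.0371 (limma, Itgb1) and 0.0388 (limma, Itgb2), both without PBS replicate 1. The count of members past the threshold was 3 without PBS replicate 1 or 3, and 2 without PBS replicate 2 or 4 or without hBD-2 replicate 3 or 4. Omitting hBD-2 replicate 1 left 5 members past it, and omitting hBD-2 replicate 2 left 4. The count over all genes moved as well, from 869 with all arrays to between 312 and 1396 with 1 array left out. It was 128 without hBD-2 replicates 3 and 4. Without hBD-2 replicates 3 and 4 together, the arrays with the narrowest ranges, no member passed by limma. In that setting 10 had an unadjusted p under 0.05 (9 lower and 1 higher), and the share of all genes at that p was not counted. All 6 log2 fold changes kept their negative sign in every alternative that was run.

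Among the beta chains, Itgb1 pairs with most of the alpha chains that bind collagen, laminin and fibronectin. Its log2 values were 9.11, 8.82, 9.03 and 8.92 on the PBS arrays and 8.34, 8.37, 8.55 and 8.40 on the hBD-2 arrays. Every hBD-2 array lay below every PBS array. The means were 8.97 ± 0.123 (SD, n = 4) and 8.42 ± 0.0949, a 1.47-fold fall (log2 fold change -0.56 with SE 0.0971, limma adjusted p = 0.00964).

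Itgb2, the beta chain of the leukocyte integrins, is the partner of Itgal, Itgam and Itgax. It measured 9.47, 9.41, 9.48 and 9.37 with PBS and 9.08, 8.89, 8.86 and 8.90 with hBD-2. The groups did not overlap, and the PBS arrays lay close together. The means of 9.43 ± 0.0523 and 8.93 ± 0.0970 (SD, n = 4) gave a 1.41-fold fall (log2 fold change -0.50 with SE 0.0888, limma adjusted p = 0.0102).

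The remaining beta chains did not pass. Itgb7, whose partners direct T cells to the gut, was at 8.74 ± 0.127 with PBS and 8.75 ± 0.188 with hBD-2 (95% interval of the log2 fold change -0.24 to 0.26). Itgb3, a vitronectin receptor chain, had a log2 difference of -0.21 (limma adjusted p = 0.200), and its groups overlapped. Itgb8, which binds latent transforming growth factor beta with Itgav, had a log2 difference of 0.20 (limma adjusted p = 0.298). Itgb5 was dim, at 4.42 ± 0.379 and 4.59 ± 0.193 (SD, n = 4), and PBS replicate 1 (3.85) lay well below the other PBS arrays (4.58 to 4.65).

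Of 8 measured alpha chains, 1 fell, Itgam, the alpha chain of the complement receptor integrin of myeloid cells, which activated T cells can also carry. Its values were 4.20, 4.73, 5.03 and 4.49 with PBS and 3.99, 4.05, 4.10 and 3.80 with hBD-2. The hBD-2 arrays were all lower, but the gap between the groups was small beside the spread of the PBS arrays (SD 0.352 against 0.130). Its fall of 1.54-fold was the largest among the 6 genes and had the highest adjusted p of the 6 (log2 fold change -0.62 with SE 0.156, limma adjusted p = 0.0461).

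The Itgam call was lost when any array other than PBS replicate 1 was left out (highest limma adjusted p = 0.126, without hBD-2 replicate 4). Itgam was also dim, at percentile 33.5 of mean level, where the summary method used for these arrays draws signals towards a common floor. In bulk RNA, fewer cells of a type and less RNA per cell cannot be told apart. Of 9 measured monocyte and macrophage markers, 1 fell and none rose (limma; at an unadjusted p under 0.05, 1 was lower and 2 were higher). The falling marker was Ccr2, which T cells also express, from 6.33 ± 0.370 to 4.46 ± 0.224 (SD, n = 4, limma adjusted p = 0.000338). The summed log2 values of the 9 markers, Ccr2 included, ranged from 38.1 to 40.99 on the PBS arrays and from 36.6 to 40.6 on the hBD-2 arrays. Of the 9 log2 differences, 3 were negative, with Ccr2 at -1.86 among them, and 6 were positive. Their median was 0.21. Csf1r and C1qa lay below the lower quartile of all genes, and the part of such cells in the Itgam value was not tested.

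Itgal, the alpha chain that pairs with Itgb2 in the main adhesion integrin of lymphocytes, did not pass although its groups did not overlap. It measured 9.62, 9.63, 9.75 and 9.71 with PBS and 9.44, 9.48, 9.46 and 9.46 with hBD-2. The separation was complete but small, with a log2 fold change of -0.22 (standard error 0.0828, limma adjusted p = 0.155). It passed when the variance was modelled with a trend over level (limma adjusted p = 0.0226). Groups that did not overlap were found for 10 members in the lower direction (25%) and 1 in the higher, where 9.36% and 5.51% of all genes were of that kind. Most members are bright, and the share of such genes among bright genes alone was not counted. The excess over all genes is thus not a result about the members.

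Itga4, which pairs with either Itgb1 or Itgb7 and binds Vcam1, was at 9.28 ± 0.155 with PBS and 9.20 ± 0.0743 with hBD-2 (95% interval of the log2 fold change -0.30 to 0.14). Itga6, a laminin receptor chain, was at 8.08 ± 0.0714 and 7.98 ± 0.0936, and Itgav, the vitronectin receptor alpha chain, at 8.60 ± 0.0229 and 8.59 ± 0.151 (SD, n = 4). The signs of these 3 differences were negative as deposited and turned positive with quantile normalization repeated, at 0.01, 0.0013 and 0.08. Itga2, a collagen receptor chain, and Itgax, the alpha chain typical of dendritic cells, had log2 differences of -0.24 and -0.21 (limma adjusted p = 0.264 and 0.227). Itga5, the fibronectin receptor alpha chain, had one of 0.06, or -0.02 with quantile normalization repeated.

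**Figure D3:**
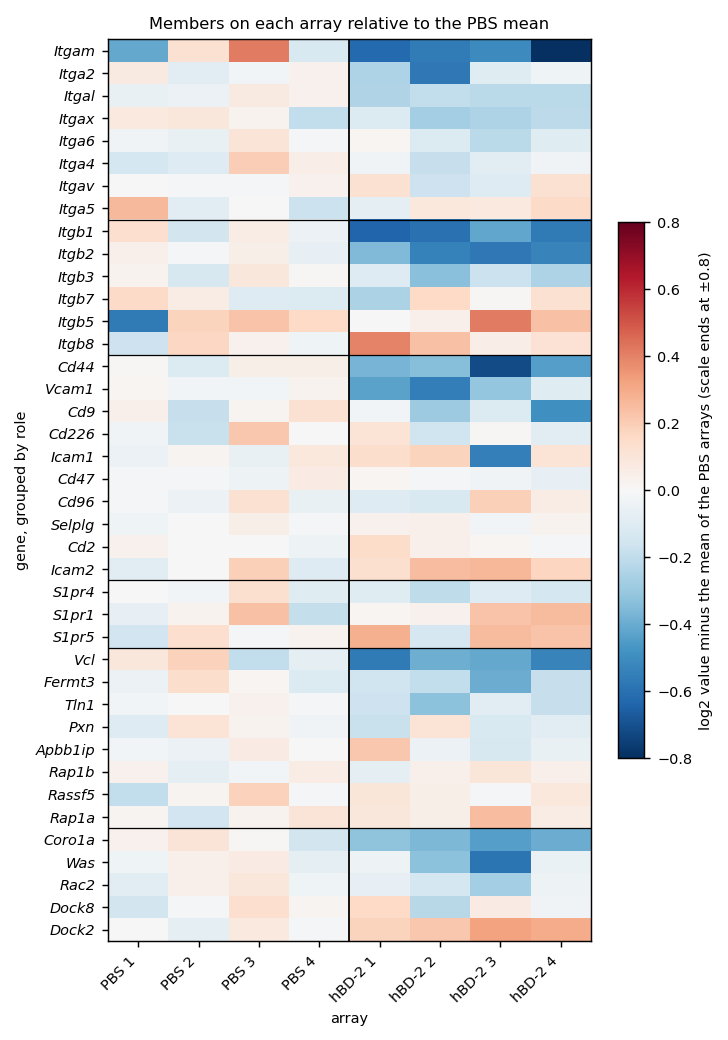
Each row is a gene, each column an array, and colour gives the log2 value minus the mean of the 4 PBS arrays (blue lower, red higher, scale ending at ±0.8). Rows are grouped by role and ordered by change. Itgb1, Itgb2, Itgam, Cd44, Vcl and Coro1a are blue on all 4 hBD-2 arrays, whereas Cd47 and Selplg stay near white on all arrays.

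Changes within pairs of related genes were compared array by array, as the difference of the 2 log2 values, in 6 pairs. The change of Itgb1 was below that of Itgb7, the alternative partner of Itga4, by 0.56 log2 units. The Itgb1 minus Itgb7 difference was 0.21, 0.02, 0.38 and 0.29 with PBS and -0.15, -0.53, -0.21 and -0.46 with hBD-2. These groups did not overlap (two-sided exact permutation test, p = 0.0286 and, over the 6 pairs, adjusted p = 0.0571). A lower p is not possible with groups of 4.

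The change of Itgb2 was below that of Itgal by 0.28 log2 units, and that of S1pr1 above that of S1pr4 by 0.27. Both reached the same smallest p (exact permutation test, two-sided, p = 0.0286, adjusted p = 0.0571), and so, like the pair of beta chains, did not pass 0.05 after adjustment. The changes of Icam1 and Icam2 differed by -0.23 (exact permutation test, adjusted p = 0.446), those of Cd226 and Cd96 by -0.04 (exact permutation test, adjusted p = 0.686) and those of Rap1a and Rap1b by 0.08 (exact permutation test, adjusted p = 0.343).

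Of 10 other adhesion receptors and ligands, Cd44 fell. Cd44 binds hyaluronan and marks activated and memory T cells. It measured 9.29, 9.17, 9.33 and 9.33 with PBS and 8.91, 8.94, 8.56 and 8.84 with hBD-2. The groups did not overlap, and hBD-2 replicate 3 was the lowest array. The fall was 1.38-fold, from 9.28 ± 0.0750 to 8.81 ± 0.173 (SD, n = 4, log2 fold change -0.47 with SE 0.104, limma adjusted p = 0.0309).

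The Cd44 call was lost with quantile normalization repeated (limma adjusted p = 0.0577) and with the replicate number as a block. It was also lost without any of the 4 PBS arrays or without hBD-2 replicate 3 or 4 (highest limma adjusted p = 0.0875, without PBS replicate 4).

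**Figure D4:**
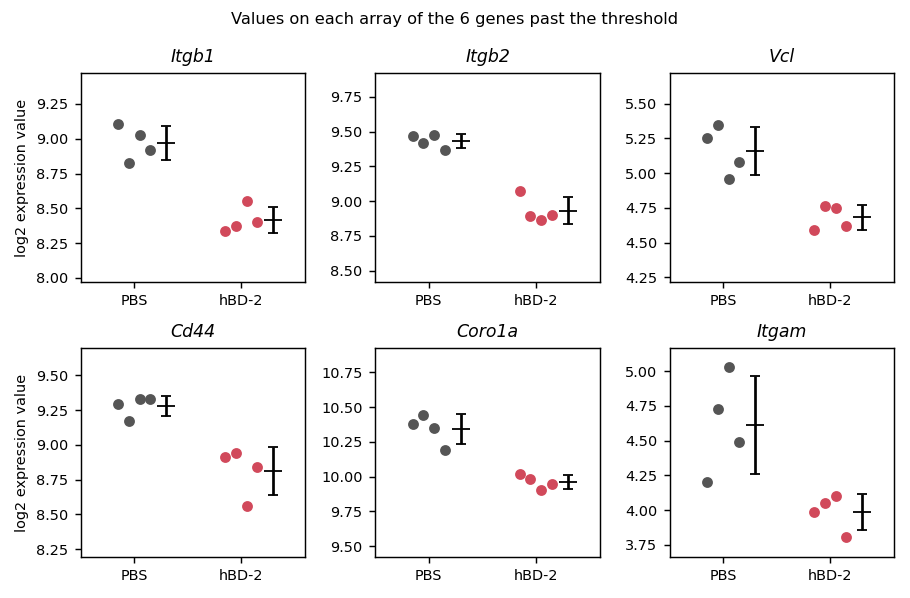
Log2 expression values (vertical axis, the same span of 1.5 log2 units in each panel) of the 6 genes past the threshold on the 4 PBS (grey) and 4 hBD-2 (red) arrays, with mean and SD bars at the side. In each panel all red points lie below all grey points, and Itgam shows the widest spread, with an SD of 0.352 on the PBS arrays.

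Vcam1, the ligand of Itga4 integrins on endothelium and stroma, was near the floor, at 3.54, 3.51, 3.51 and 3.56 with PBS and 3.10, 2.98, 3.22 and 3.43 with hBD-2. All hBD-2 arrays were lower, but the difference did not pass (log2 fold change -0.35 with SE 0.106, limma adjusted p = 0.0863). It passed with quantile normalization repeated (limma adjusted p = 0.0465) and with cyclic loess (limma adjusted p = 0.0433). None of 7 markers of stroma and endothelium passed in either direction (limma; at an unadjusted p under 0.05, none was lower and 2 were higher). Their summed log2 values were 33.5 to 35.0 with PBS and 35.1 to 36.2 with hBD-2, with Cdh5 and Kdr below the lower quartile of all genes.

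The ligands of the Itgal integrin on neighbouring cells, Icam1 and Icam2, did not pass. Icam1 measured 7.54, 7.61, 7.52 and 7.67 with PBS and 7.73, 7.76, 7.04 and 7.70 with hBD-2. A single low array, hBD-2 replicate 3, set its mean, and the log2 fold change was -0.03 with all arrays and 0.14 without hBD-2 replicate 3. Icam2 had a log2 difference of 0.20 (limma adjusted p = 0.240).

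Selplg, the selectin ligand that lets lymphocytes roll, was at 11.4 ± 0.0358 with PBS and 11.4 ± 0.0294 with hBD-2 (95% interval of the log2 fold change -0.16 to 0.20). Cd47, which signals to phagocytes through Sirpa, had an interval of -0.20 to 0.16, and Cd2, a receptor for Cd48, one of -0.14 to 0.23. Cd226 and Cd96, an activating and a mostly inhibitory receptor that share the ligand Pvr, had log2 differences of -0.03 and 0.01 (limma adjusted p = 0.891 and 0.979). The tetraspanin Cd9, which organises integrins in the membrane, had one of -0.23 (limma adjusted p = 0.285). Its hBD-2 arrays ran from 7.08 to 7.55 and overlapped the PBS arrays, at 7.38 to 7.69.

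None of the 3 receptors for sphingosine 1-phosphate passed in either direction (limma, also none at an unadjusted p under 0.05). S1pr1, needed for exit from lymphoid organs, measured 9.20, 9.29, 9.50 and 9.07 with PBS and 9.28, 9.30, 9.49 and 9.52 with hBD-2. The groups overlapped widely, with a log2 fold change of 0.13 (standard error 0.111, limma adjusted p = 0.522). S1pr4, a receptor of lymphocytes, had a log2 difference of -0.14 (limma adjusted p = 0.392). S1pr5, a receptor of natural killer cells, was dim and had one of 0.16 (limma adjusted p = 0.452), with hBD-2 replicate 2 at 3.83 and the other hBD-2 arrays at 4.19 to 4.24.

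Among 8 integrin activators and adaptors, Vcl fell. Vinculin links talin to actin at adhesion sites under load. Its values were 5.25, 5.34, 4.96 and 5.08 with PBS and 4.59, 4.76, 4.75 and 4.62 with hBD-2. The groups did not overlap, and both were dim, around percentile 42.7 of mean level. The fall was 1.39-fold, from 5.16 ± 0.173 to 4.68 ± 0.0873 (SD, n = 4, log2 fold change -0.48 with SE 0.105, limma adjusted p = 0.0297). The Vcl call was lost without PBS replicate 1, 2 or 4 or hBD-2 replicate 3 or 4 (highest limma adjusted p = 0.0929, without PBS replicate 2).

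Talin (Tln1) and kindlin-3 (Fermt3), which bind the beta chain tail and open the integrin, were lower on every hBD-2 array without passing. Tln1 measured 10.43, 10.45, 10.49 and 10.43 with PBS and 10.28, 10.12, 10.36 and 10.27 with hBD-2 (log2 fold change -0.19 with SE 0.0876, limma adjusted p = 0.226). For Fermt3, the values were 9.17, 9.35, 9.23 and 9.11 with PBS and 9.06, 9.02, 8.82 and 9.03 with hBD-2 (log2 fold change -0.23 with SE 0.0968, limma adjusted p = 0.184). Both passed under the variance trend (limma adjusted p = 0.0329 for Tln1 and 0.0490 for Fermt3).

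None of the GTPase genes of the activation pathway passed. Rap1a and Rap1b, which switch integrins on, had log2 differences of 0.11 and 0.03. Their effectors Rassf5 and Apbb1ip, which carry the signal to integrins, were at 8.36 ± 0.156 and 8.41 ± 0.0490, and at 8.49 ± 0.0495 and 8.49 ± 0.149 (SD, n = 4). The adhesion site scaffold Pxn (paxillin) had a log2 difference of -0.07 (limma adjusted p = 0.721).

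Of 5 actin regulators, Coro1a fell. Coronin 1A binds actin filaments and the branching complex and is needed for T cell movement and survival. It measured 10.38, 10.45, 10.35 and 10.19 with PBS and 10.02, 9.98, 9.90 and 9.94 with hBD-2. The groups did not overlap, and the hBD-2 arrays were close to each other. The fall was 1.30-fold, from 10.3 ± 0.106 to 9.96 ± 0.0508 (SD, n = 4, log2 fold change -0.38 with SE 0.0900, limma adjusted p = 0.0388).

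The Coro1a call was lost with quantile normalization repeated (limma adjusted p = 0.0733), with cyclic loess (0.0782) and with the replicate number as a block. Leaving out any array other than hBD-2 replicate 1 also ended it (highest limma adjusted p = 0.117, without PBS replicate 2).

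Dock2, the exchange factor that activates Rac in moving lymphocytes, lay higher on every hBD-2 array without passing. It measured 10.26, 10.19, 10.34 and 10.26 with PBS and 10.44, 10.48, 10.58 and 10.56 with hBD-2 (log2 fold change 0.25 with SE 0.0858, limma adjusted p = 0.115). It passed under the variance trend (limma adjusted p = 0.00377) and when dim genes were left out. Dock8, an exchange factor for Cdc42, had a log2 difference of -0.01, and Rac2, the Rac of blood cells, one of -0.13 (limma adjusted p = 0.982 and 0.444). Was, the gene of WASP, which starts branched actin, had one of -0.25 (limma adjusted p = 0.260), with hBD-2 arrays from 6.22 to 6.76 against PBS arrays from 6.72 to 6.87.

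**Figure D5:**
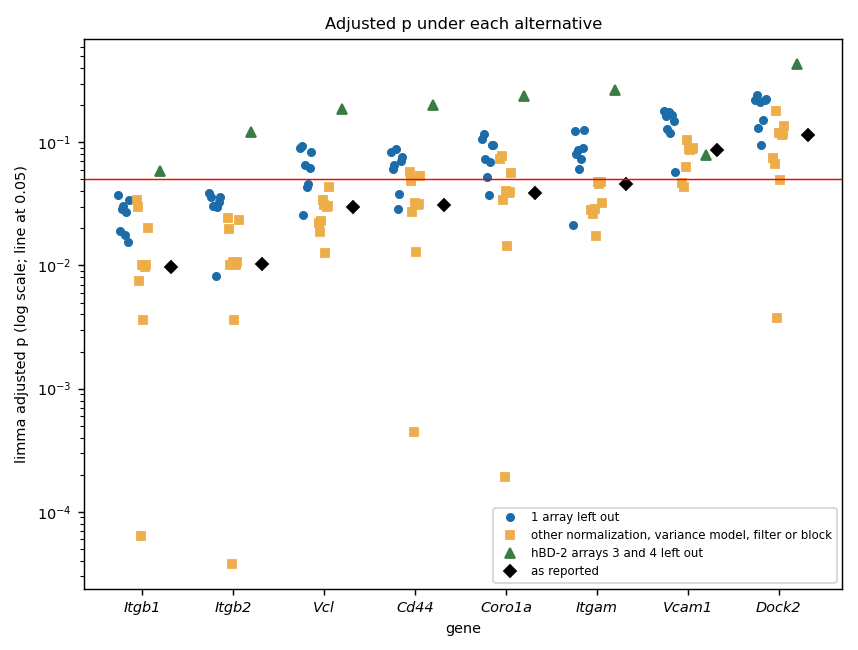
Limma adjusted p (log scale, line at 0.05) of the 6 genes past the threshold and of Vcam1 and Dock2, as reported and under each alternative. The points for single arrays left out lie below the line for Itgb1 and Itgb2 in all 8 omissions, and below it in 1 of 8 for Itgam and Coro1a. With hBD-2 replicates 3 and 4 left out, the lowest value among the 6 is 0.0584, for Itgb1.

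A further list of 110 genes of the same pathways held 103 measured ones, of which 5 fell and 1 rose, a share of 4.85% lower, near the 3.66% of all genes. The 6 calls became 2 without PBS replicate 1 or 2, 3 when hBD-2 replicate 3 or 4 was omitted, and 11 on omitting hBD-2 replicate 1. The fall of Itga7, a laminin-binding alpha chain that pairs with Itgb1, was 2.68-fold and larger than that of any of the 40 members. It measured 7.34, 7.41, 7.36 and 7.17 with PBS and 6.16, 5.84, 5.86 and 5.74 with hBD-2. The groups were far apart (log2 fold change -1.42 with SE 0.109, limma adjusted p = 0.000103), and the call held in every alternative run.

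Lcp1 (L-plastin), an actin-bundling protein of leukocytes, was the 1 of 37 further actin regulators past the threshold. It fell 1.58-fold, from 11.1 ± 0.0236 to 10.5 ± 0.196 (SD, n = 4, limma adjusted p = 0.00656), a call lost without hBD-2 replicates 3 and 4 together (limma adjusted p = 0.0762). At an unadjusted p under 0.05, 11 of these 37 were lower (29.7%) and 1 was higher (2.7%). All 37 lay above the upper quartile of mean level, where 26.3% of all genes were lower and 7.79% higher at that p, so the lower share was near that of bright genes as a whole. Of 22 further adhesion molecules, 3 fell (13.6%, where 3.66% of all genes were called lower) and 1 rose. At an unadjusted p under 0.05, 6 of these 22 were lower and 6 higher, where 12.8% and 9.44% of all genes were. Pvr, the ligand of Cd226 and Cd96, had a log2 difference of -0.53 (limma adjusted p = 0.0190), and Alcam, a ligand of the T cell receptor Cd6, one of -0.46 (0.0178). The tetraspanin Cd82 had one of -0.43 (limma adjusted p = 0.0406).

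Sirpa, the receptor of Cd47, rose 1.42-fold (log2 fold change 0.50, limma adjusted p = 0.0481). Its values were 6.62, 6.73, 6.97 and 6.77 with PBS and 6.94, 7.32, 7.36 and 7.49 with hBD-2. hBD-2 replicate 1 thus overlapped the PBS arrays. The Sirpa call was lost without any array other than PBS replicate 3 or hBD-2 replicate 1 (highest limma adjusted p = 0.130). Without PBS replicate 1 or 2, the calls of Pvr, Alcam and Cd82 were lost (highest limma adjusted p = 0.0651, 0.0623 and 0.114). Cd82 passed only without hBD-2 replicate 2 among the 8 omissions, and Pvr was also lost without hBD-2 replicate 3 or 4. With quantile normalization repeated, Alcam and Cd82 did not pass (limma adjusted p = 0.0534 and 0.0745). Cd82 also did not pass with cyclic loess or with the replicate number as a block. None of 24 further integrin activators and none of 9 further sphingosine 1-phosphate genes passed (limma). At an unadjusted p under 0.05, 2 of the 24 were lower and 3 higher, and 2 of the 9 were lower and 1 higher. Of all genes, 12.8% were lower and 9.44% higher at that p.

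Markers of other spleen cells mostly did not pass. Of 7 mast cell and basophil markers, Cpa3 and Fcer1a rose (at an unadjusted p under 0.05, 4 were higher and 1 lower). The lower marker was Kit, with a log2 difference of -0.67 that did not pass (limma adjusted p = 0.0744). Of 3 erythroid markers, Klf1 rose. None of 7 B cell, 5 neutrophil, 7 dendritic cell, 5 natural killer cell or 5 platelet markers passed (limma). At an unadjusted p under 0.05, 1 B cell, 1 dendritic cell and 2 platelet markers were higher. The natural killer cell markers had 1 lower at that p, and the neutrophil markers none either way. Of all genes, 12.8% were lower and 9.44% higher at that p. All 7 B cell markers had positive log2 differences (median 0.50), with a wide spread between arrays. Their summed log2 values were 33.1 to 38.3 with PBS and 34.1 to 43.1 with hBD-2. The summed log2 values of the platelet markers were 27.5 to 29.2 with PBS and 28.3 to 29.6 with hBD-2, beside Itgb3 and Cd9, which platelets also carry. The part of these cells in the members' values was not tested.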

How the data were processed

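The deposited table held log2 expression values of 22203 probe sets on 8 Affymetrix arrays, made by the authors with RMA in the oligo package, per the submitters' processing notes (versions not given in the sources used here). RMA subtracts background, quantile-normalizes the arrays and summarises probes, and it compresses folds of dim genes. A symbol was listed for 19572 probe sets and none for 2631, which stayed unnamed. Where a gene had more than 1 probe set (55 genes), the brightest on average represented it, leaving 19505 genes. Groups of 4 arrays were compared with limma 3.58.1 in R 4.3.3 (lmFit, eBayes, two-sided, Benjamini-Hochberg over all genes, threshold 0.05). Arrays give no read depth, so their number limits the precision.

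The members and lists were chosen with earlier results of these data known. All measured members were named, and of the further pathway genes those past the threshold. Differences within 6 pairs of genes were compared with an exact permutation test. The alternatives were quantile normalization repeated, cyclic loess, median centring, a variance trend, robust variance, a filter on genes below percentile 40 of mean level, the mean of a gene's probe sets, all probe sets, the replicate number as a block, and each array left out. Omission of hBD-2 replicates 3 and 4 together, and the CArG box, were added after seeing the data. On simulated data of 19505 genes for hBD-2 against PBS, changes were seeded only in genes at or above percentile 40 of mean level. The fit recovered 6% of seeded 1.25-fold changes, 66% of those of 1.5-fold, 90% of 2-fold and 100% of 3-fold, with 9 false calls. Noise was drawn independently for each array. These figures therefore do not cover dimmer members such as Itgam, or differences that many genes share on an array.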

Additional observations from a re-analysis of the deposited data

Results flagged for a closer look

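Arrays that stood apart from the other 3 of their group were found for 7 of 104 combinations of gene or gene pair and group (Dixon's criterion at the 95% level, which chance meets in about 1 in 20 groups). Icam1, Fermt3 and Selplg stood apart on hBD-2 replicate 3. Icam1 was at 7.04 there, against 7.70 to 7.76 on the other hBD-2 arrays. Fermt3 was at 8.82, against 9.02 to 9.06. Selplg was at 11.33, against 11.38 to 11.39, a gap of little size for a gene with a narrow spread. The Icam1 minus Icam2 difference on the same array was -0.48, against 0.27 to 0.35.

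On PBS replicate 1, the dim gene Itgb5 was at 3.85, against 4.58 to 4.65 on the other PBS arrays. S1pr5, also dim, was at 3.83 on hBD-2 replicate 2, against 4.19 to 4.24. The Itgb2 minus Itgal difference was -0.36 on hBD-2 replicate 1, higher than on the other hBD-2 arrays, at -0.60 to -0.56.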

How the results depend on the processing

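The variance trend gave 10 members past the threshold in place of 6, 30 further pathway genes in place of 6 and 2032 of all genes in place of 869. The dim filter gave 14 further pathway genes and 1541 genes. Leaving out each array in turn gave 2 to 5 members, 2 to 11 further pathway genes and 312 to 1396 genes, and leaving out hBD-2 replicates 3 and 4 gave 0 members by limma (10 at an unadjusted p under 0.05), 1 pathway gene and 128 genes. The replicate numbers were not used as pairs, since the labels tie no array to a mouse and not every same-numbered correlation was over 0.1. Correlations of same-numbered deviations were 0.181, 0.0585, 0.159 and 0.00482. PBS replicates 1 and 3, but not 2 and 4, were closest to their own number. A shared mouse cannot be told from these values. Most B cell markers did follow the number. Ms4a1, Cd79a, Pax5, Fcer2a and Blnk were each higher on replicates 2 and 4 than on 1 and 3 in both groups. Cd79b and Cr2 did not show this. Whether same-numbered arrays share a mouse was not tested. With the number as a block, 4 members, 7 further pathway genes and 857 genes passed, and Cd44, Coro1a and Cd82 did not (limma adjusted p = 0.0528, 0.0566 and 0.0543). No other named call of a member or further pathway gene was lost, and the pairs of genes could not go below p = 0.125 (exact sign-flip permutation test). With an array left out, few arrangements of the remaining arrays are possible. The pairs' p-values in those settings were therefore not used as a measure of stability. Members that did not pass changed sign as follows, on the log2 scale, and the cause was not tested. With quantile normalization repeated, Itga4 was at 0.010, Itga5 at -0.019, Itga6 at 0.0013, Itgav at 0.081, Icam1 at 0.056, Cd47 at 0.057, Cd226 at 0.071, Pxn at 0.024, Apbb1ip at 0.085 and Dock8 at 0.068. With cyclic loess, Itga4 was at 0.00035, Itga5 at -0.026, Itgav at 0.080, Icam1 at 0.047, Cd47 at 0.050, Cd226 at 0.053, Pxn at 0.014, Apbb1ip at 0.081 and Dock8 at 0.075. With arrays centred on their medians, Itgb7 was at -0.020, Selplg at -0.010, Cd96 at -0.023 and Rap1b at -0.0049. Without hBD-2 replicates 3 and 4, Itgb7 was at -0.046, Icam1 at 0.16, Cd47 at 0.0038, Cd96 at -0.11, Rap1b at -0.016 and Apbb1ip at 0.084. Leaving out each array in turn gave -0.019 to 0.25 for Itgb5, -0.011 to 0.12 for Rassf5, -0.055 to 0.049 for Cd96, -0.041 to 0.098 for Itgb7, -0.093 to 0.039 for Cd226, -0.076 to 0.037 for Apbb1ip, -0.061 to 0.066 for Dock8, -0.049 to 0.047 for Itgav and -0.097 to 0.14 for Icam1. The 7 members that lay below percentile 40 of mean level were not tested under the dim filter.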
